A study of Mus musculus with 9 samples.

Results

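The clustered protocadherins are 3 tandem families of cell adhesion genes on mouse chromosome 18, named Pcdha (alpha), Pcdhb (beta) and Pcdhg (gamma). Members were taken as every protein-coding gene whose symbol begins with one of those names followed by a member name and which the count tables place on chromosome 18, which gave 57 of the 48440 genes listed: 14 alpha, 22 beta and 21 gamma genes. In mm10, the genome build of the study, the alpha genes lie between positions 36930184 and 37187661, the beta genes between 37264938 and 37524479 and the gamma genes between 37661793 and 37841873, all on the + strand. A 58th symbol of the same kind, Pcdhgb8, is annotated as a polymorphic pseudogene and was not counted as a member.

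The values come from polyA RNA sequencing of J1 mouse embryonic stem cells, grown in serum with leukemia inhibitory factor and with inhibitors of MEK (PD0325901) and GSK3 (CHIR99021). All 9 libraries have the genotype Suz12-AID, in which Suz12, a core subunit of the Polycomb repressive complex PRC2, carries an auxin-inducible degron, so that the protein is destroyed when auxin is added. The 3 groups were Mock, Auxin (50 µM indole-3-acetic acid for 96 h) and Re-introduction (auxin removed and the cells left for 4.5 h), each with 3 biological replicates as the series describes them. No unmodified parental line is among these groups, and whether the line is 1 clone is not given in the sources used here. Auxin itself and the loss of Suz12 therefore cannot be told apart.

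Each clustered protocadherin gene is one variable exon with its own promoter, or a small set of exons, that encodes a cadherin-type adhesion molecule. In the alpha and gamma clusters every variable exon is spliced to the same constant exons, which encode a shared cytoplasmic tail, while the beta genes stand alone and have no constant exons. Neurons choose among the promoters almost at random and the chosen isoforms give each cell a surface identity that neurites use to recognise themselves; the last genes of the alpha and gamma clusters, the C-type genes Pcdhac1, Pcdhac2, Pcdhgc3, Pcdhgc4 and Pcdhgc5, are used by many neurons in common. In embryonic stem cells the promoters are mostly weakly used or silent.

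The exon layout decides which reads can be assigned. Reads in exon bases that another gene also covers were not counted, so an alpha or gamma gene is measured by its variable exon and not by the constant exons. The median member had 46.4% of its annotated exon length free of other genes in the alpha cluster, 54.8% in the gamma cluster and 100% in the beta cluster, where 19 of 22 genes shared no base. Pcdhga10 has no free base, because the antisense gene Gm26672 covers its variable exon, and its count of 0 in all 9 libraries carries no information. Some variable exons also resemble each other: up to 17.3% of the 75-base words of an alpha exon, 3.89% of a beta exon and 13.6% of a gamma exon occur in another gene, and 12 of 20 gamma genes had no such word. Levels are counts per 1000000 counts of the library (CPM), scaled by the trimmed mean of M-values. Levels of different genes are compared per kb of unshared exon where that is stated. Where genes are set beside each other by CPM, or by their share of cluster counts, the unshared length also enters. In the beta cluster that length runs from 1107 to 8695 bases.

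**Figure D1:**
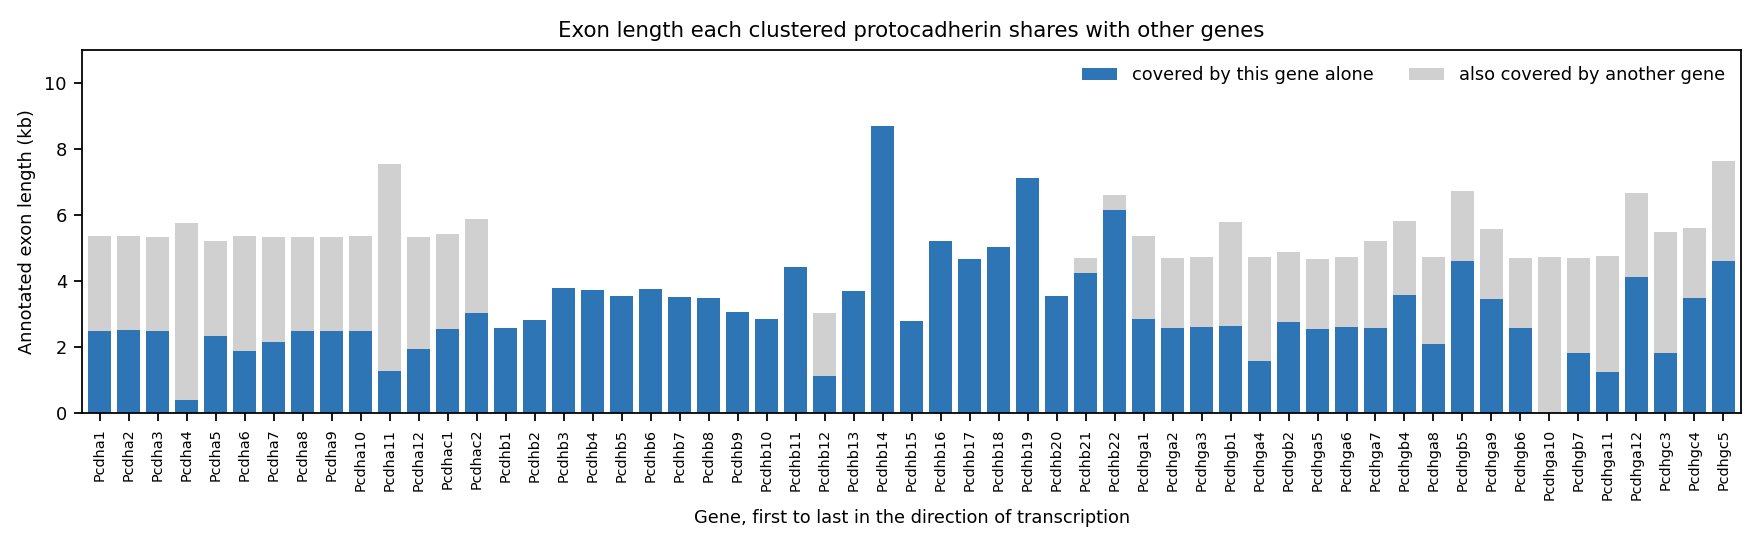
Annotated exon length in kb of each of the 57 genes, in order along the chromosome; blue is exon covered by that gene alone and grey is exon that another gene also covers. The beta genes other than Pcdhb12, Pcdhb21 and Pcdhb22 are blue throughout, and the alpha and gamma genes are part grey, from Pcdhga10 at 0% blue and Pcdha4 at 7.01% to Pcdhgb5 at 68.5%.

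Total counts per library ran from 44341283 (Re-introduction replicate 2) to 113931419 (Mock replicate 1), with each mate of a read pair counted on its own. The pluripotency genes that define the cell type, among them Pou5f1, Nanog, Sox2 and Esrrb, were high in sum in every library. The summed CPM of 8 such genes ran from 5541 to 5667 in Mock, 6780 to 7285 in Auxin and 5309 to 5407 in Re-introduction. These genes did not all move in the same direction between the groups, as given below with the other markers. The degron acts on the protein, so Suz12 RNA does not check the labels; it was 125 to 137 CPM in Mock, 122 to 152 in Auxin and 164 to 173 in Re-introduction. Library composition by gene length differed: log2 CPM moved by -0.25 to -0.17 per doubling of exon length in the Mock libraries, by 0.01 to 0.15 in Auxin, where replicate 2 was the lowest, and by 0.08 to 0.10 in Re-introduction. Its part in the results was not tested as a cause; the member counts with the length trend removed are given beside each comparison.

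In Mock cells the gamma cluster carried nearly all of the signal. Summed over its members, the gamma cluster stood at 21.6, 25.2 and 24.0 CPM in the 3 Mock libraries, the beta cluster at 1.84, 2.20 and 1.62 CPM and the alpha cluster at 0.155, 0.0241 and 0.126 CPM. Per kb of unshared exon this was 0.420 ± 0.0332 CPM for the gamma cluster (SD, n = 3), 0.0210 ± 0.00322 for the beta cluster and 0.00334 ± 0.00226 for the alpha cluster. In Mock, 12 of the 57 genes had no count in any library, of which 8 were alpha genes, 3 beta genes and 1 the unmeasurable Pcdhga10. The 35 members that passed the expression filter had a median level of 0.0989 CPM per unshared kb, beside 2.93 over 18876 tested genes; in Auxin the medians were 0.418 and 3.55, and in Re-introduction 0.203 and 3.46.

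Among gamma genes in Mock the highest levels per unshared kb were those of Pcdhgc3 and Pcdhga11, near the 3′ end. Their unshared exon is short, at 1821 and 1256 bases, and the counting ignored strand. By mean CPM Pcdhga1 (2.60) stood above Pcdhga11 (2.43). Pcdhgc3, a C-type gene, had 3.43, 3.75 and 3.72 CPM and a level of 2.00 ± 0.0992 CPM per unshared kb (SD, n = 3), and Pcdhga11 had 1.94 ± 0.141. These neighbours in the order do not differ beyond their spread. Pcdhga1, the first gamma gene, came next at 0.915 ± 0.0654, then Pcdhgb7 at 0.757 ± 0.104, and the lowest tested gamma gene was Pcdhgb4 at 0.0698 ± 0.0136. The last genes of the cluster, Pcdhgc4 and Pcdhgc5, were also among the low ones, at 0.0989 ± 0.0200 and 0.0989 ± 0.0300. Pcdhgc3 alone supplied 15.4% ± 0.510 of the counts of the gamma cluster. In the beta cluster Pcdhb17 had 0.602, 0.724 and 0.755 CPM and supplied 37.4% ± 7.94 of the beta counts.

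**Figure D2:**
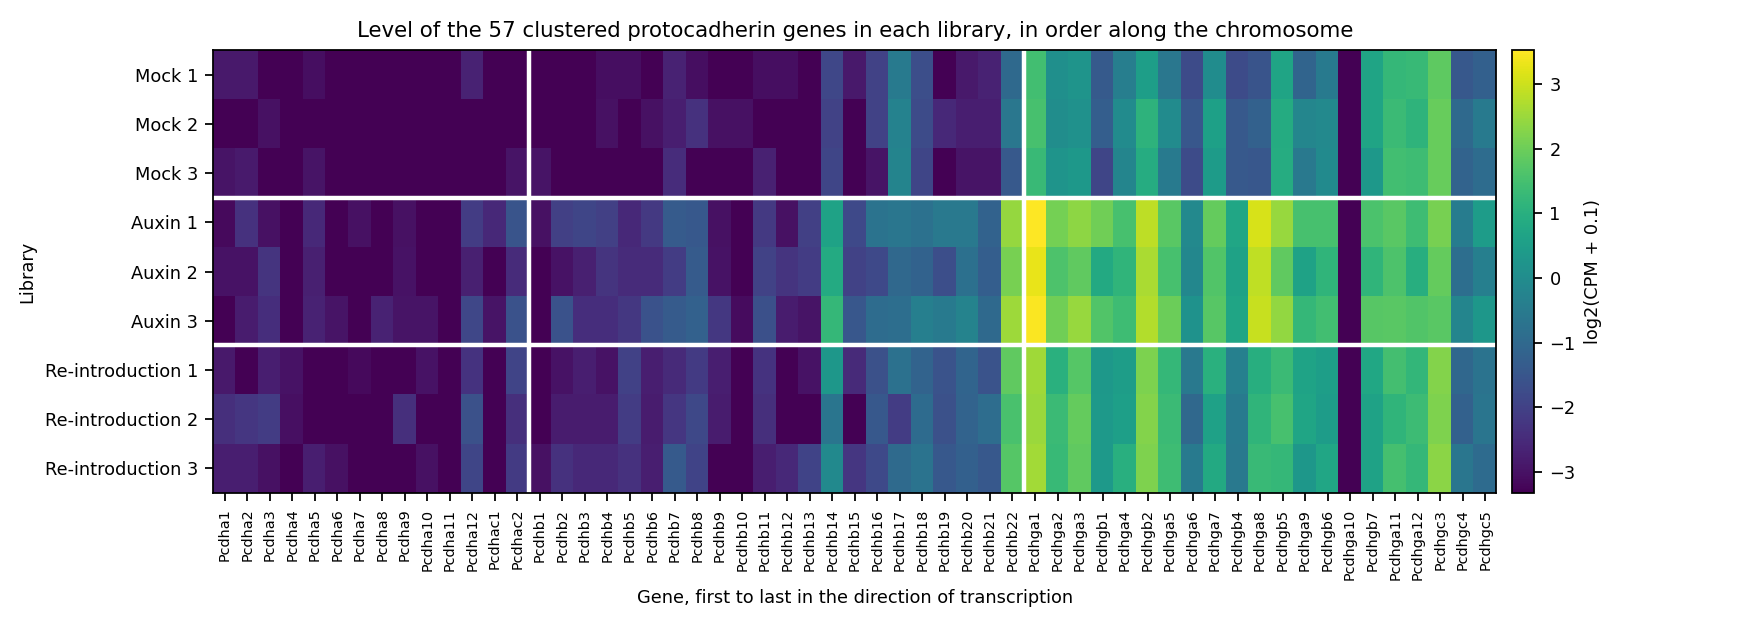
Level of each of the 57 genes (columns, in order along the chromosome, white lines between the alpha, beta and gamma clusters) in each of the 9 libraries (rows), as log2(CPM + 0.1). Alpha genes are dark in all libraries, beta genes brighten in the Auxin rows with Pcdhb22 and Pcdhb14 the brightest, and most gamma genes are brightest in Auxin and intermediate in Re-introduction.

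The first comparison, Auxin against Mock, asks what happened to these genes when Suz12 was depleted for 96 h. All 3 clusters were higher in sum. The alpha cluster reached 0.707, 0.367 and 0.774 CPM in the Auxin libraries, 6.05 times its Mock mean. The beta cluster reached 11.6, 9.21 and 13.3 CPM, 6.03 times Mock, and the gamma cluster 78.2, 60.3 and 75.0 CPM, 3.02 times Mock. For each cluster every Auxin library lay above every Mock library. Auxin replicate 2 was the lowest Auxin library in all 3.

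**Figure D3:**
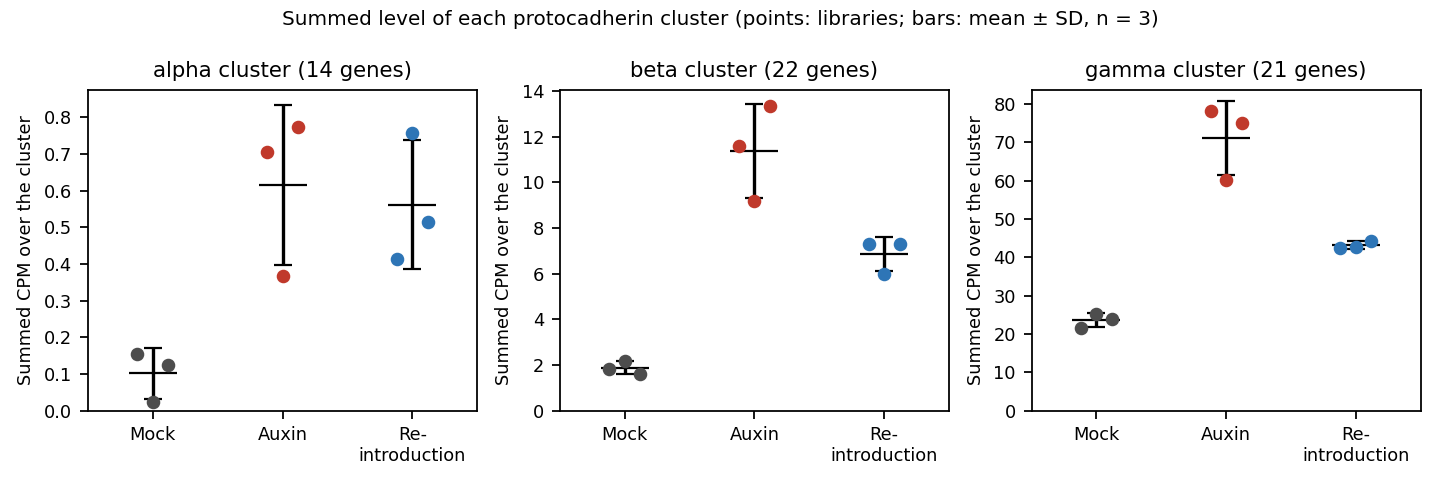
Summed CPM of the alpha, beta and gamma clusters in each library (points) with the mean ± SD of each group (bars, n = 3); each panel has its own scale from 0. Every Auxin library is above every Mock library in each panel, and the Re-introduction libraries lie between the other groups for the beta (5.99 to 7.30) and gamma (42.4 to 44.4) clusters.

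Gene by gene, 32 of the 35 tested members were called higher in Auxin and 0 were called lower (edgeR quasi-likelihood test, Benjamini-Hochberg adjusted p under 0.05 over 20838 genes), beside 38.4% of all tested genes called higher and 34.8% called lower. Those 32 were 2 of 2 tested alpha genes, 12 of 13 beta genes and 18 of 20 gamma genes. The median log2 fold change was 2.01 over the 35 members and 0.05 over all tested genes. In 31 of the 35, every Auxin library was above every Mock library, which also held for 38.4% of all tested genes. DESeq2's Wald test likewise called 32 higher and 0 lower, and 30 were called higher with the length trend removed.

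The 22 members that did not pass the filter on low counts were 12 alpha genes, 9 beta genes and Pcdhga10, and members that passed only through the Auxin libraries had to be higher there. With no filter 55 members could be tested, of which 38 were called higher and 0 lower, beside 25.1% and 22.5% of 32989 genes. Pcdha11 and Pcdhga10 had no count in any library.

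Among the tested gamma genes the largest change was in Pcdhga8, a variable A-type gene in the middle of the array. It had 25, 28 and 19 counts in the Mock libraries, or 0.243, 0.338 and 0.266 CPM, and 698, 548 and 520 counts in Auxin, or 8.51, 7.19 and 7.59 CPM. The log2 fold change was 4.78 (SE 0.16, adjusted p = 7.43e-10 by edgeR). Per unshared kb Pcdhga8 went from 0.135 ± 0.0238 to 3.72 ± 0.325 CPM (SD, n = 3), which put it level with Pcdhga1 at 3.79 ± 0.307 as the highest members in Auxin cells. Without Pcdhga8 the gamma cluster still stood at 2.72 times its Mock sum.

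Pcdhga1, the gamma gene nearest the 5′ end, rose from 2.62, 2.78 and 2.41 CPM to 11.4, 9.77 and 11.1 CPM, a log2 fold change of 2.05 (SE 0.09, edgeR adjusted p = 5.05e-09). Pcdhgb2, a B-type gene, rose from 1.34, 2.04 and 1.79 CPM to 7.01, 6.23 and 6.51 CPM, a log2 fold change of 1.94 (SE 0.14, edgeR adjusted p = 1.65e-07). Pcdhgb4 rose from 0.194, 0.278 and 0.280 CPM to 1.55, 1.43 and 1.52 CPM, a log2 fold change of 2.59 (SE 0.20, edgeR adjusted p = 3.14e-07). In each of these genes every Auxin library was above every Mock library. The other gamma genes from Pcdhga2 to Pcdhgb6 were also called higher, from group means of 0.218 (Pcdhga6) to 1.67 CPM (Pcdhgb5) in Mock to 0.888 and 4.73 CPM for the same genes in Auxin. Pcdhgb1 had the highest fold change among them: it stood at 0.281, 0.314 and 0.168 CPM in Mock and at 3.99, 1.68 and 3.08 CPM in Auxin, lowest in replicate 2 (log2 fold change 3.49, SE 0.33, edgeR adjusted p = 2.05e-06).

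The end of the gamma array changed less. These genes were singled out after their values were seen. Pcdhgb7, Pcdhga11 and Pcdhga12 also share exon bases with the antisense gene Gm26672, and the counting ignored strand. Exon free of any other gene was 38.7%, 26.4% and 61.9% of their length. Gm26672 was itself called higher in Auxin (log2 fold change 1.54, SE 0.36, edgeR adjusted p = 0.00232). The part of antisense reads in the counts of Pcdhgb7, Pcdhga11 and Pcdhga12 was not tested. Pcdhgb7 went from 1.49, 1.48 and 1.16 CPM to 2.88, 2.12 and 3.29 CPM (log2 fold change 0.99, SE 0.17, edgeR adjusted p = 0.00028), and Pcdhga11, next along, had a log2 fold change of 0.39 (SE 0.12, edgeR adjusted p = 0.0124), a call that ended with the length trend removed (0.26, edgeR adjusted p = 0.0708). Pcdhga12 had 2.34, 2.10 and 2.53 CPM in Mock and 2.54, 1.88 and 3.07 CPM in Auxin; the ranges overlapped and it was not called (log2 fold change 0.10, SE 0.16, edgeR adjusted p = 0.594).

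The C-type genes at the 3′ end of the gamma cluster, whose products neurons use in common, split. Pcdhgc3 had 3.43, 3.75 and 3.72 CPM in Mock and 4.28, 3.62 and 3.30 CPM in Auxin, so the groups overlapped and it was not called (log2 fold change 0.04, SE 0.11, edgeR adjusted p = 0.73); its sign turned with the length trend removed (-0.16). Pcdhgc4, an isoform needed for neuron survival, rose from 0.272, 0.410 and 0.350 CPM to 0.634, 0.459 and 0.774 CPM (log2 fold change 0.86, SE 0.28, edgeR adjusted p = 0.0165), a call that ended with the length trend removed (0.65, edgeR adjusted p = 0.0519). Pcdhgc5 rose from 0.330, 0.603 and 0.434 CPM to 1.27, 0.669 and 1.12 CPM (log2 fold change 1.17, SE 0.29, edgeR adjusted p = 0.00313). As a group the 3 gamma C-type genes summed to 1.21 times Mock, beside 3.43 times for the 18 A- and B-type genes; the share of gamma counts held by Pcdhgc3 was 5.29% ± 0.818 in Auxin (SD, n = 3) against 15.4% ± 0.510 in Mock.

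Along the 17 tested A- and B-type gamma genes, the log2 fold change ran with place in the array at Spearman's rho = -0.57 and with the Mock level at -0.64. The genes share the same libraries. The Mock level is also the baseline of the fold change, so noise in the Mock libraries alone can make that correlation negative, and nothing is concluded from it. Without Pcdhgb7, Pcdhga11 and Pcdhga12 the correlation with place was -0.22 over 14 genes. Those genes were picked as last in place and small in change, so leaving them out weakens it by construction. Nothing is concluded from that either. The correlation with the Mock level was then -0.49.

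**Figure D4:**
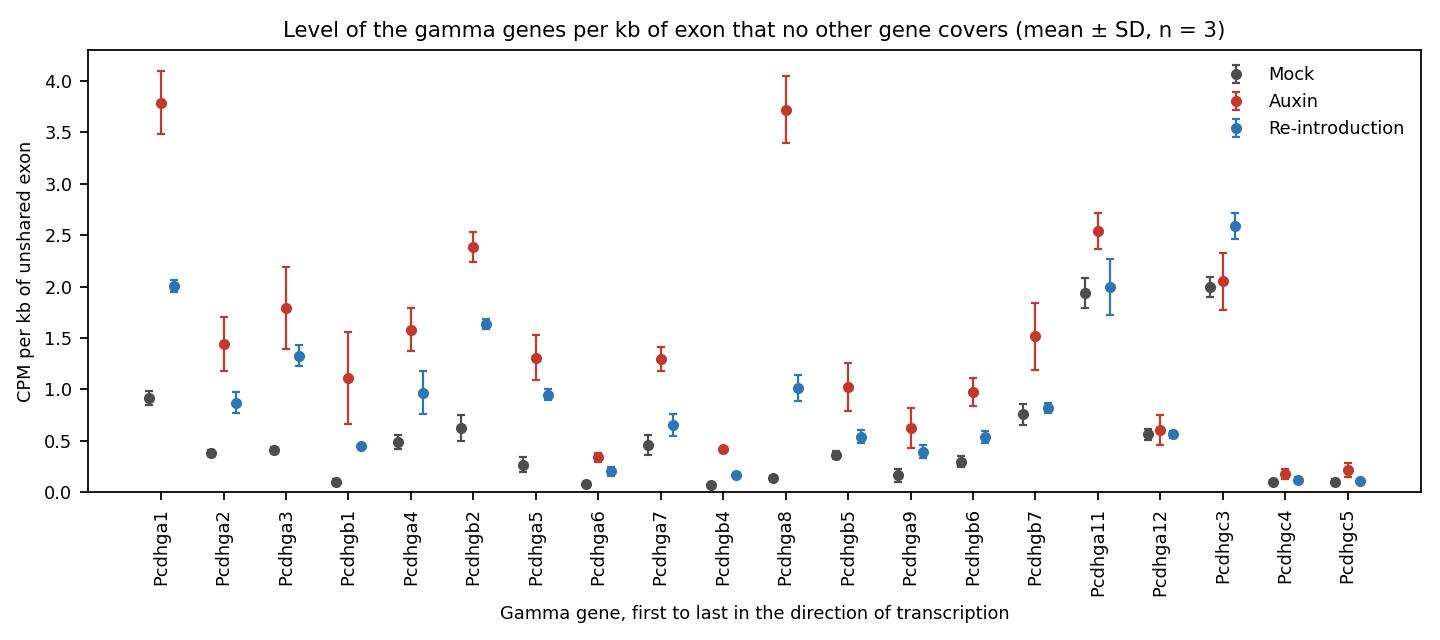
Level of the 20 gamma genes with unshared exon, in CPM per kb of that exon, in order from 5′ to 3′; points are group means and bars ± SD (n = 3) for Mock (grey), Auxin (red) and Re-introduction (blue). Pcdhga1 and Pcdhga8 are the highest in Auxin at 3.79 and 3.72, and Pcdhga12 and Pcdhgc3 show overlapping Mock and Auxin values.

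The beta genes encode adhesion molecules without the shared cytoplasmic tail. Pcdhb22, the last gene of the cluster, rose from 0.408, 0.555 and 0.280 CPM to 5.35, 4.24 and 5.69 CPM (log2 fold change 3.60, SE 0.20, edgeR adjusted p = 3.09e-08), and it supplied 44.9% ± 1.93 of the beta counts in Auxin against 21.5% ± 4.05 in Mock (SD, n = 3). Pcdhb14 rose from 0.175, 0.157 and 0.168 CPM to 1.45, 1.72 and 2.25 CPM (log2 fold change 3.42, SE 0.30, edgeR adjusted p = 1.12e-06). Pcdhb20 rose from 0.0388, 0.0483 and 0.0280 CPM to 0.585, 0.472 and 0.730 CPM, a log2 fold change of 3.88 (SE 0.34, edgeR adjusted p = 1.23e-06). Pcdhb21 rose from 0.0582, 0.0483 and 0.0280 CPM to 0.341, 0.315 and 0.409 CPM (log2 fold change 2.89, SE 0.40, edgeR adjusted p = 5.33e-05). None of the 4 had an Auxin library as low as any Mock library.

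The other beta genes called higher stayed low in both groups. Apart from Pcdhb13 they were Pcdhb7, Pcdhb8, Pcdhb11, Pcdhb15, Pcdhb16, Pcdhb18 and Pcdhb19, with group means of 0.0129 (Pcdhb15) to 0.191 CPM (Pcdhb18) in Mock. In Auxin the lowest mean was 0.166 CPM (Pcdhb11) and the highest that of Pcdhb18, which had 0.488, 0.341 and 0.672 CPM. Pcdhb19 had 0, 6 and 0 counts in Mock and 48, 16 and 42 in Auxin, again lowest in Auxin replicate 2. Pcdhb16 had 16, 13 and 2 counts in Mock and 42, 14 and 30 in Auxin.

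Pcdhb13 was at 0 counts in every Mock library and had 12, 10 and 2 counts in Auxin. Taking 3 counts over the whole Mock group as the limit that a count of 0 allows, which covers counting error only, Pcdhb13 was at least 9.08-fold higher in Auxin; it was named after its values were seen. Among beta genes too low to be tested, Pcdhb2 had 30 counts in Auxin and 0 in Mock, at least 11.4-fold higher, and Pcdhb3 had 24 and 0, at least 9.08-fold higher. Counts are of single mates, so 2 counts are often 1 fragment and these limits are not conservative.

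Pcdhb17 went the other way. It had 0.602, 0.724 and 0.755 CPM in Mock and 0.549, 0.393 and 0.453 CPM in Auxin, with every Auxin library below every Mock library, which held for 35.8% of all tested genes, but the change was not called (log2 fold change -0.57, SE 0.32, edgeR adjusted p = 0.126). It was called lower only in the fit with length and GC trends removed (-0.77, edgeR adjusted p = 0.0394). Its share of the beta counts was 37.4% ± 7.94 in Mock and 4.13% ± 0.677 in Auxin (SD, n = 3).

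In the alpha cluster the signal stayed close to the limit of detection. Pcdhac2, a C-type gene, had 0, 0 and 2 counts in Mock and 20, 6 and 16 in Auxin. The ratio of pooled group counts, scaled in the same way as CPM, was 23.8 (95% counting interval 6.20 to 203). That interval is too narrow where both mates of a fragment were counted. Pcdhac2 was called higher (log2 fold change 4.30, SE 0.86, edgeR adjusted p = 0.00083). Pcdha12, the last of the alternate alpha genes, had 6, 0 and 0 counts in Mock and 11, 4 and 12 in Auxin, so that the groups overlapped (log2 fold change 2.31, SE 0.87, edgeR adjusted p = 0.0323). That call was lost in 6 alternatives, among them leaving out Mock replicate 2, Mock replicate 3, Auxin replicate 1 or Auxin replicate 3 (log2 fold change 1.79 to 2.21, edgeR adjusted p of 0.0763 to 0.0983). The 12 untested alpha genes together had 19 counts in Mock and 70 in Auxin.

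**Figure D5:**
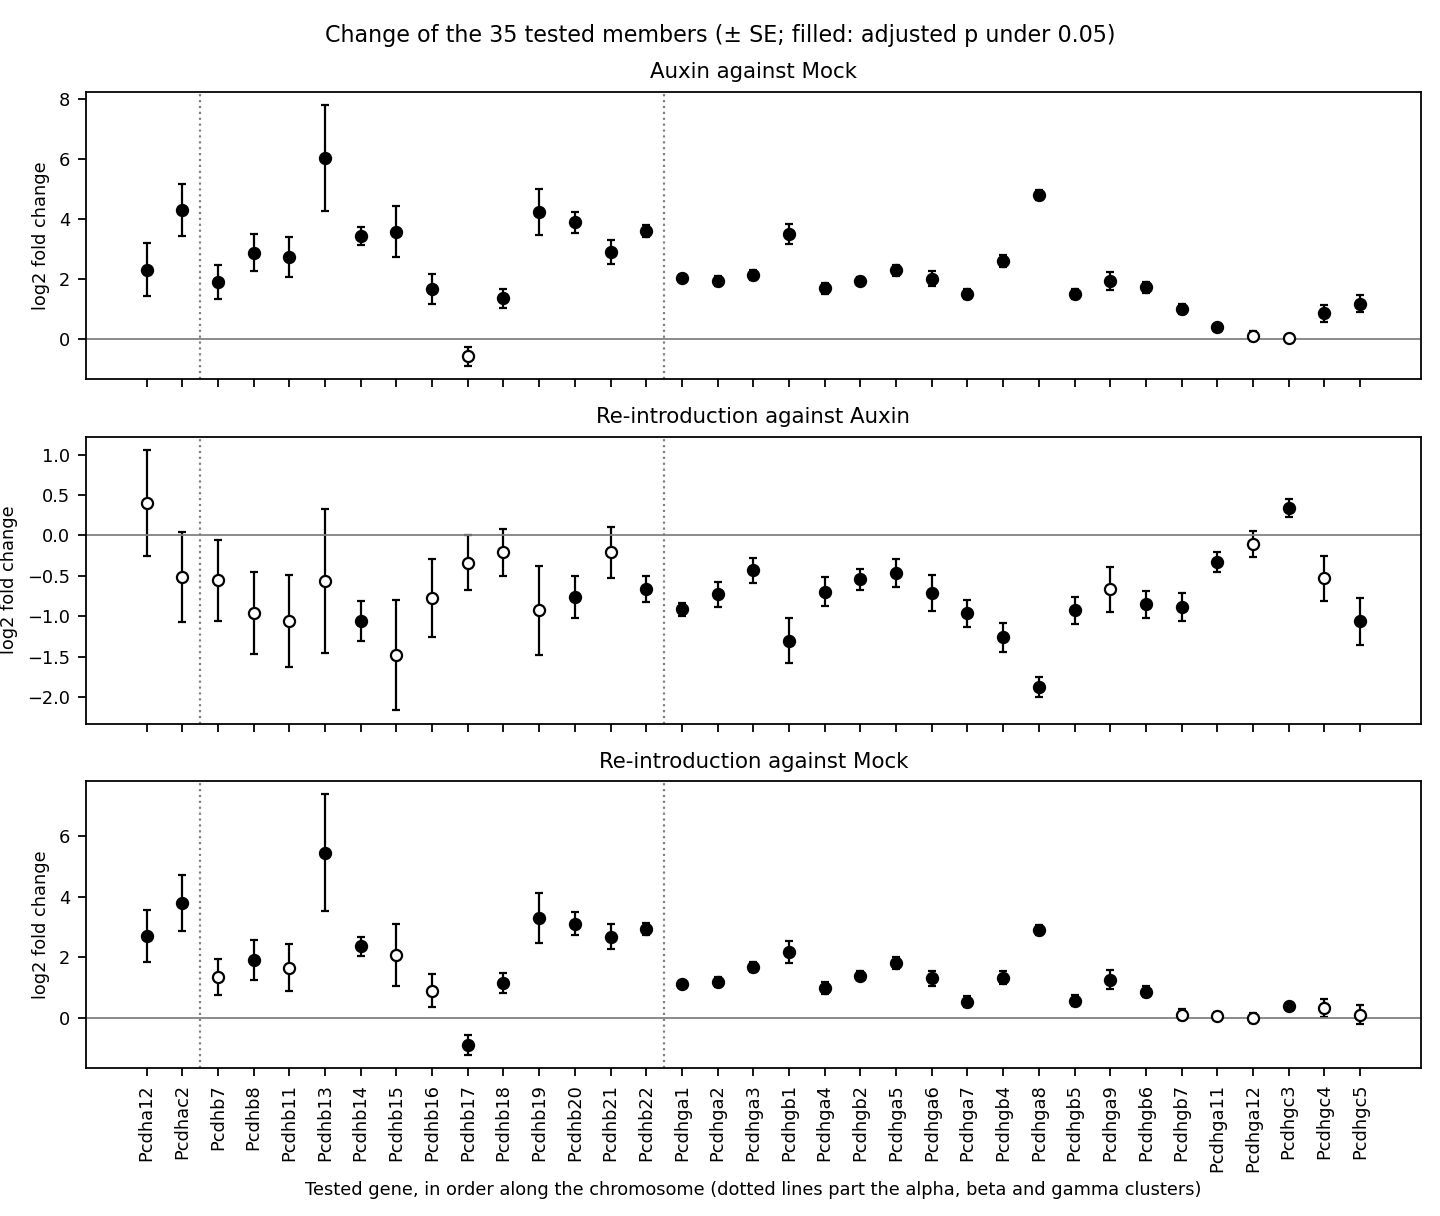
Log2 fold change ± SE of the 35 tested members, in order along the chromosome, in the 3 comparisons; filled points have an edgeR adjusted p under 0.05 and dotted lines separate the clusters. In Auxin against Mock 32 points are filled and above 0 and those at the end of the gamma array come close to 0; in Re-introduction against Auxin 19 filled points are below 0 and Pcdhgc3 is above. The fitted value for Pcdhb13 in the top and bottom panels rests on a Mock group at 0 counts.

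The second comparison, Re-introduction against Auxin, asks what changed in the 4.5 h after auxin was removed. It shares the Auxin libraries with the first comparison. The gamma cluster stood at 42.4, 42.8 and 44.4 CPM after washout and the beta cluster at 7.30, 5.99 and 7.29 CPM, 0.607 and 0.603 times their Auxin means, and neither overlapped with Auxin. The alpha cluster stood at 0.414, 0.757 and 0.515 CPM and overlapped with Auxin.

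Of the 35 tested members 19 were called lower than in Auxin and 1 was called higher, beside 25.5% of all tested genes in each direction. The median log2 fold change was -0.71 over the members and 0.00 over all tested genes. The 19 were 16 of 20 gamma genes and 3 of 13 beta genes, with 0 of 2 alpha genes; whether the clusters differ in this was not tested. In 21 of the 35, every Re-introduction library was below every Auxin library, against 29.4% of all tested genes. With the length trend removed 19 were called lower and 1 higher.

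Pcdhga8 fell most, to 1.84, 2.14 and 2.38 CPM (log2 fold change -1.87, SE 0.13, edgeR adjusted p = 5.56e-07). Pcdhgb4 fell to 0.690, 0.601 and 0.576 CPM (-1.26, SE 0.18, edgeR adjusted p = 0.00014). Pcdhga1 fell to 5.76, 5.50 and 5.82 CPM (-0.92, SE 0.09, edgeR adjusted p = 6.74e-06), and Pcdhga7, another A-type gene, from 3.66, 3.06 and 3.24 CPM to 1.93, 1.40 and 1.70 CPM (-0.97, SE 0.17, edgeR adjusted p = 0.000639). Pcdhgb2 fell less, to 4.39, 4.68 and 4.51 CPM (-0.54, SE 0.13, edgeR adjusted p = 0.00415). Every library of these 5 genes after washout was below every Auxin library. Pcdhgb1 stood at 1.17, 1.20 and 1.18 CPM after washout, closer together than its Auxin libraries, and Pcdhga9, Pcdhga12 and Pcdhgc4 were the gamma genes not called, with log2 fold changes of -0.67, -0.11 and -0.53.

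Pcdhgc3 was the only member called higher, at 4.69, 4.50 and 4.96 CPM (log2 fold change 0.34, SE 0.11, edgeR adjusted p = 0.0228). Its 3 Re-introduction libraries lay above all Auxin and all Mock libraries. The call was lost when Auxin replicate 3, Re-introduction replicate 1 or Re-introduction replicate 3 was left out (edgeR adjusted p = 0.0799, 0.054 and 0.0948), with total counts as the scale and with only the groups compared in the fit.

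Among beta genes Pcdhb14 fell to 1.14, 0.534 and 0.845 CPM (log2 fold change -1.06, SE 0.25, edgeR adjusted p = 0.00417) and Pcdhb22 to 3.50, 2.87 and 3.21 CPM (-0.67, SE 0.16, edgeR adjusted p = 0.00586). Pcdhb20 was called lower (-0.76, SE 0.26, edgeR adjusted p = 0.0283), and that call was lost in 8 of its 16 alternatives, including leaving out Auxin replicate 1, Auxin replicate 3 or any of the 3 Re-introduction libraries (edgeR adjusted p of 0.0571 to 0.117). The remaining 10 tested beta genes were not called, and their log2 fold changes were all below 0, from -1.48 to -0.21. In the alpha cluster Pcdhac2 had 13, 4 and 10 counts after washout and Pcdha12 had 8, 10 and 14, and neither was called (edgeR adjusted p = 0.471 and 0.646).

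The third comparison sets Re-introduction against Mock, with the Mock libraries of the first comparison and the Re-introduction libraries of the second. After washout 25 of 35 members were called higher than Mock and 1 was called lower, beside 34.7% and 33.4% of all tested genes; the median log2 fold change was 1.33 for members and 0.03 for all. Of the 32 members called higher in Auxin, 24 were called higher than Mock after washout and 8 were not called. The other gene called higher was Pcdhgc3, which was not called in Auxin against Mock (log2 fold change 0.38, SE 0.11, edgeR adjusted p = 0.00866). With the length trend removed 22 were called higher and 1 lower; the calls lost were those of Pcdhga7, Pcdhgb5 and Pcdhgc3 (edgeR adjusted p = 0.0848, 0.144 and 0.159). The gamma cluster stood at 1.83 times Mock and the beta cluster at 3.63 times.

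Pcdhga8 remained at a log2 fold change of 2.91 over Mock (SE 0.17, edgeR adjusted p = 1.15e-07) and Pcdhb22 at 2.94 (SE 0.21, edgeR adjusted p = 4.33e-07). Pcdhgb7, Pcdhga11, Pcdhgc4 and Pcdhgc5, 4 of the 8, had Re-introduction and Mock ranges that overlapped, with log2 fold changes of 0.11, 0.06, 0.33 and 0.11. The other 4 were beta genes of few counts, Pcdhb7, Pcdhb11, Pcdhb15 and Pcdhb16, with log2 fold changes of 0.90 to 2.09. Pcdhb17 was the gene called lower, at 0.489, 0.134 and 0.417 CPM (-0.90, SE 0.33, edgeR adjusted p = 0.0295); the call was lost without Mock replicate 2 or Mock replicate 3 (edgeR adjusted p = 0.0697 and 0.0744). In 16 of the 35 members every Auxin library was above every Re-introduction library and every Re-introduction library above every Mock library, against 12.2% of all tested genes; 12 of them were gamma A- and B-type genes and 4 beta genes.

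The genes that surround the clusters went both ways, as did all tested genes, of which 38.4% were called higher in Auxin and 34.8% lower. Of 27 tested protein-coding genes within 500 kb of the outermost members or between the clusters, 11 were called higher in Auxin than in Mock and 11 lower, with a median log2 fold change of -0.03. Taf7, a TFIID subunit gene between the beta and gamma clusters, went from 252, 253 and 252 CPM to 299.7, 269.5 and 300.2 CPM (log2 fold change 0.20, SE 0.05, edgeR adjusted p = 0.00606), and Diaph1, a formin gene just beyond the gamma cluster on the 3′ side, fell from 134, 132 and 128 CPM to 61.2, 64.2 and 62.1 CPM (-1.07, SE 0.05, edgeR adjusted p = 4.24e-09). Pcdh1, a non-clustered protocadherin within the same window, rose from 0.970, 0.784 and 1.02 CPM to 4.25, 4.64 and 4.25 CPM (2.24, SE 0.12, edgeR adjusted p = 2.82e-08).

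Chromatin loops bring protocadherin promoters to their enhancers. Of 11 genes of CTCF, cohesin and its loaders and release factors, 2 were called higher in Auxin and 2 lower. The shares over all tested genes were 38.4% and 34.8%. Ctcf, whose product binds the variable promoters, fell from 277, 288 and 289.8 CPM to 244, 227 and 242 CPM (log2 fold change -0.26, SE 0.05, edgeR adjusted p = 0.000558); with total counts as the scale it was -0.05 and not called. Rad21, a cohesin subunit gene, was the other called lower (-0.17). The genes of the cohesin loader, Mau2 and Nipbl, rose by 0.45 (SE 0.05) and 0.91 (SE 0.20) on the log2 scale, and Nipbl was at 56.6 CPM in Auxin replicate 2 against 98.0 and 111 in the other Auxin libraries.

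Of 11 genes for chromatin repressors and DNA methylation factors, some of them known to silence these clusters, 8 were called lower in Auxin and 2 higher. The shares over all tested genes were 34.8% and 38.4%. Uhrf1, which guides maintenance of DNA methylation, fell from 536, 518 and 520.2 CPM to 126, 146 and 125 CPM (log2 fold change -1.99, SE 0.07, edgeR adjusted p = 7.17e-10). Dnmt1, the maintenance methyltransferase, fell from 312, 318 and 315 CPM to 150.0, 154 and 145 CPM (-1.07, SE 0.05, edgeR adjusted p = 4.95e-09). The 2 that rose were Smchd1 (0.61), an SMC-family protein that holds the clusters silent, and Lrif1 (0.79), which brings it to chromatin. After washout 8 of the 11 were called higher than in Auxin and 0 lower, beside 25.5% of all tested genes in each direction. Dnmt3b, a de novo methyltransferase, had a log2 fold change of 1.20 (SE 0.05) and Setdb1, an H3K9 methyltransferase, of 0.58 (SE 0.05). The part of these genes in the protocadherin changes was not tested.

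Of the 4 PRC2 core genes, Eed, which binds the H3K27 methyl mark, fell by 0.77 in Auxin (SE 0.05) and Ezh1, the alternative catalytic subunit, rose by 0.36 (SE 0.05), a call lost with the length trend removed (0.02, edgeR adjusted p = 0.795); Suz12 and Ezh2 were not called (0.09 and -0.11).

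Of 14 genes for partners of the protocadherin proteins inside the cell and for their processing, 11 were called higher in Auxin and 3 lower. The shares over all tested genes were 38.4% and 34.8%. Fyn, a kinase bound by the alpha tail, rose from 11.1, 11.6 and 10.9 CPM to 64.2, 65.8 and 63.5 CPM (log2 fold change 2.53, SE 0.05, edgeR adjusted p = 7.8e-11) and stood at 25.6, 26.2 and 25.6 CPM after washout. Adam10, the protease that sheds the extracellular part, rose from 23.7, 25.8 and 26.5 CPM to 81.3, 66.4 and 80.7 CPM (1.59, SE 0.08, edgeR adjusted p = 1.49e-08) and stood at 81.3, 86.5 and 84.2 CPM after washout. Of 5 tested non-clustered protocadherins 3 were called higher and 1 lower, and of 6 tested classical cadherins 4 were called higher and 1 lower; Cdh1, the E-cadherin of stem cell colonies, rose by 0.35 (SE 0.06) and Cdh4 by 2.84 (SE 0.13).

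Markers of other cell types moved with the groups as well. Over all tested genes, 38.4% were called higher in Auxin than in Mock and 34.8% lower. Against Mock after washout the shares were 34.7% and 33.4%. Of the 8 pluripotency genes, 6 were called higher in Auxin than in Mock and 2 lower. After washout 1 was called higher than in Auxin and 6 lower, beside 25.5% of all tested genes in each direction. Set against Mock, 2 were then called higher and 4 lower. All 7 primitive endoderm genes were called higher in Auxin, with a summed level of 5.998 to 7.47 CPM in Mock, 22.7 to 23.6 in Auxin and 14.2 to 16.0 in Re-introduction, and none was at 0 throughout. The 12 neural genes, of the cell type in which clustered protocadherins are best known, summed to 129 to 138 CPM in Mock, 102 to 114 in Auxin and 98.5 to 101 in Re-introduction. Of 9 tested, 2 were called higher in Auxin than in Mock and 4 lower, and Dcx and Neurog2 were at 0 in all 9 libraries. The 6 trophoblast genes summed to 47.6 to 50.8 CPM in Mock, 46.3 to 53.1 in Auxin and 108 to 110 in Re-introduction; of 5 tested, 3 were called higher in Auxin than in Mock and 2 lower (median log2 fold change 0.93). The 6 mesoderm and fibroblast genes summed to 33.9 to 36.1, 44.9 to 54.2 and 42.8 to 44.0 CPM; 2 of them were called higher in Auxin than in Mock and 3 lower (median log2 fold change -0.51), and after washout 1 was called higher than in Mock and 4 lower (median -0.60). In these bulk samples fewer cells of a type and less RNA per cell cannot be told apart, and the part of other cell types in the protocadherin values was not tested.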

How the data were processed

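PolyA RNA of 9 libraries was sequenced as 75-base read pairs. The count of reads per gene in each table was made by the authors with featureCounts 2.0.6 over exons of an mm10 annotation, per the file headers, in paired mode without strand and with each mate counted; reads on bases that more than 1 gene covers were dropped. Trim Galore 0.6.10, FastQC 0.12.1, Bowtie2 2.5.3 and SAMtools 1.20 are named, per the submitters' processing notes. Symbols (48058 of 48440 genes) come from a reference list of gene names, and exon sharing from the exon coordinates supplied with the counts. GENCODE M21 gave gene types, GC and the transcripts for the 75-base words. ENSMUSG00000007440 was named Pcdha10 by its RefSeq position. The counting ignores strand, so a gene and its antisense partner cannot be told apart.

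Counts were analysed in edgeR 4.0.16 (R 4.3.3) with filterByExpr, TMM factors (0.905 to 1.08), group means over all 9 libraries and quasi-likelihood tests; 20838 genes were tested and calls use a Benjamini-Hochberg adjusted p under 0.05. On simulated data with 200 genes changed 2-fold, 75%, 69.5% and 75% were recovered for Auxin against Mock, Re-introduction against Auxin and Re-introduction against Mock (20838 genes), and 8.54%, 6.71% and 7.41% of the calls were false. Each of these false shares exceeded the threshold of 0.05. Far more genes were called in the data (38.4% higher and 34.8% lower in Auxin against Mock), so these rates need not hold there. Biological variation was 9.15%. Alternatives were DESeq2 1.42.0 size factors and Wald test, total counts, other filters, only the groups compared, a replicate block, length and GC trends removed, counts halved, and each library left out.

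Named in each comparison were the 4 called members of smallest p per cluster, the 3 of highest mean CPM, and 2 called genes per list. The members and all lists were chosen with earlier results of these data known.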

Additional observations from a re-analysis of the deposited data

How the results depend on the processing

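Median log2 fold changes of the members kept their direction in all alternatives, and no called member changed sign. Of members called higher in Auxin 28 of 32 were called in every alternative that tested them (not Pcdha12, Pcdhb16, Pcdhga11 and Pcdhgc4), of those called lower after washout 14 of 19 (not Pcdhb20, Pcdhga11, Pcdhga3, Pcdhga5 and Pcdhga6), and of those higher than Mock after washout 20 of 25 (not Pcdhb13, Pcdhb8, Pcdhga7, Pcdhgb5 and Pcdhgc3). Member counts under the alternatives stand here without the share of all genes called, which is given for the main and no-filter fits. A filter of 1 CPM in at least 3 libraries left 19 members, of which 17 were higher in Auxin than Mock, 16 higher and 0 lower after washout against Mock. Of all genes called under that filter, 53.4% were higher in Auxin than Mock and 50.5% higher after washout than Mock. With length and GC trends removed 1 member, Pcdhb17, was called lower in Auxin. Total counts, and the fit of only the 2 groups, called 0 higher after washout against Auxin, and total counts called 0 lower after washout against Mock. Leaving out 1 library gave 30 to 32 higher and 0 lower for Auxin against Mock, 0 to 1 higher and 14 to 22 lower for Re-introduction against Auxin, and 22 to 25 higher and 0 to 1 lower for Re-introduction against Mock. Of all called genes, 52.1% to 52.4%, 48.2% to 51.9% and 49.6% to 50.8% were higher in these fits, in the same order. Same-numbered libraries did not deviate together (correlations of -0.172 to 0.0547, median -0.0185). For libraries of different number the correlations ran from -0.177 to 0.239 (median 0.0176). With 3 libraries per group this does not settle whether the numbers pair them. With a replicate block the counts were 31 higher and 0 lower, 1 higher and 17 lower, and 24 higher and 1 lower. Of all genes called with the block, 52.2%, 50.3% and 50.7% were higher. Pcdhgc3, not called in Auxin against Mock, turned sign with the length trend removed (-0.16), with length and GC trends removed (-0.0645) and, over the fits without 1 library, ran from -0.0678 (without Auxin replicate 1) to 0.123 (without Auxin replicate 3), and Suz12 in Re-introduction against Mock turned with length and GC trends removed (-0.0769); the cause was not tested. Total counts moved the median of all genes in Auxin against Mock from 0.05 to 0.26 and the share of called genes that were higher from 52.4% to 63.3%; the members' median less that of all genes was 1.96 with the TMM scale and 1.97 with total counts. In the alpha cluster 12 of 14 genes had too few counts to be tested. Alpha genes had a median of 2475 unshared exon bases, beside 2601 in the gamma cluster. In the same Mock libraries the alpha cluster stood at 0.00334 CPM per unshared kb and the gamma cluster at 0.420. The parts of low expression, depth and shared exons in the low alpha counts were not tested.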
